A study of Mus musculus with 24 samples.

Results

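The cytosolic ribosome is built from ribosomal RNA and a set of ribosomal proteins that are divided between a large (60S) and a small (40S) subunit. The Rpl and Rplp genes encode proteins of the large subunit and the Rps genes and Rpsa encode those of the small subunit. A gene was counted as a member when its symbol began with Rpl or Rps, with the Rps6k kinases, Rps19bp1 and symbols marked as pseudogenes (-ps) left out, and no measured value entered that choice. This gave 87 of the 24411 genes listed. Of these, 46 were canonical large-subunit genes, 31 were canonical small-subunit genes and 10 were paralogs or retrocopies of a canonical gene, namely Rpl3l, Rpl7l1, Rpl10l, Rpl22l1, Rpl36al, Rpl37rt, Rpl39l, Rps4l, Rps27l and Rps27rt. A retrocopy is a copy of a messenger RNA that was written back into the genome and so has no introns of the original.

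Ribosomal proteins are needed in nearly equal amounts, and cells hold their messenger RNAs at high levels that tend to move together. Most of these messenger RNAs begin with a cytosine followed by an unbroken run of pyrimidines, the 5′ terminal oligopyrimidine (TOP) sequence, through which the kinase mTORC1 and the RNA-binding protein LARP1 set how strongly they are translated. In the brain, both neurons and glia carry them.

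RNA was sequenced in bulk from aged male C57/Bl6 mice of 20 months. All groups received 8 intravenous injections of 100 µl over 24 days. Whole hippocampi were taken from 5 mice that received saline, 6 that received the young blood plasma preparation (young plasma below) and 6 that received the young platelet fraction, and microglia of the hippocampus, sorted with CD11b beads after dissociation, came from mice given saline (n = 3) or recombinant mouse platelet factor 4 (PF4, 5 µg/ml, n = 4). Saline, plasma and platelet fraction hippocampi are named here by the numbers in their labels (7143 to 7159 and 7594 to 7596), and microglial libraries by theirs (saline 2, 3 and 4, and PF4 1 to 4). The study counts the microglia groups in mice, with as many mice as libraries in each.

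Depth was 6140510 to 10522699 counted reads in hippocampus and 19855188 to 36342162 in microglia. All 6 neuronal, 4 astrocyte and 5 oligodendrocyte markers were above 0 in every hippocampal library. All 8 microglial markers were above 0 in every microglial library, where they summed to 728349 to 1.06e+06 normalized counts. Of 6 neuronal markers, 3 were at 0 in all saline microglia and 0 were at 0 in all PF4 microglia. Oligodendrocyte markers summed to 177670 normalized counts in PF4 4, against 1181 to 28642 in the other microglial libraries. Endothelial markers summed to 6199 to 44725 over the microglial libraries. The 6 choroid plexus markers were present in both tissues and uneven, with sums of 1052 to 59289 in hippocampus, and of 205316 (saline 2), 525439 (PF4 2) and 365126 (PF4 4) against 683 to 999 in the other 4 microglial libraries. A hippocampal value is an average over all cells, in which fewer cells of a type and less RNA per cell cannot be told apart.

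The sequence that the copies share decides how well their values can be kept apart, so the coding sequences of the Rps27 family are shown first. Rps27 (chr3:90212522-90213651, minus strand, GRCm38/mm10, GENCODE vM21) has a retrocopy, Rps27rt (chr9:114982366-114982739, minus strand), whose 255 coding bases were identical to those of Rps27 at 255 of 255 positions, so the sequence of Rps27 below stands for both. The paralog Rps27l (chr9:66946086-66949516, plus strand) matched at 194 of 255 positions (76.1%), and the 61 bases that differ from Rps27 are in capitals.
Rps27 and Rps27rt: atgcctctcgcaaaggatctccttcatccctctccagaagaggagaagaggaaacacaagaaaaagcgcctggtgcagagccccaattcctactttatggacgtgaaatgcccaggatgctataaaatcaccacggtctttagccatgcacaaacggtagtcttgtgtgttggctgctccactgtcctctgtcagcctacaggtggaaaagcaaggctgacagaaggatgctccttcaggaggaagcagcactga
Rps27l: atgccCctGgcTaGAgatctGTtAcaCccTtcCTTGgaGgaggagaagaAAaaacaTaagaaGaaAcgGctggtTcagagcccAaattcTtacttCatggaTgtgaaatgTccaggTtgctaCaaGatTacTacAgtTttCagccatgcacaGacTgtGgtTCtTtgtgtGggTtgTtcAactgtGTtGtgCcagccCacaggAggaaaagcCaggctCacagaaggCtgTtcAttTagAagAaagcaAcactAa

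Rps27l differs from Rps27 at many points along its length, with no identical stretch over 11 bases, whereas reads from the coding part of Rps27 and Rps27rt cannot be told apart. Among the other copies, Rpl37rt matched 293 of 294 coding bases of Rpl37, and the remaining pairs were further apart, at 87.9% (Rpl36al and Rpl36a), 85.3% (Rpl39l and Rpl39), 84.8% (Rpl10l and Rpl10), 80.0% (Rps4l and Rps4x), 73.5% (Rpl3l and Rpl3), 68.0% (Rpl22l1 and Rpl22) and 53.9% (Rpl7l1 and Rpl7) identity. In the annotation, Rps4l and Rpl37rt are transcribed processed pseudogenes and the other 8 copies are protein coding.

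The start of the transcript is the other stretch that the family shares, and windows of 50 bases around the RefSeq start (GRCm38.p6) are shown for members that the results below turn on. Capitals mark a run of 8 or more C or T that begins with C within 10 bases of the annotated start. Rps27 (chr3:90213619-90213668, minus strand), Rplp2 (chr7:141447631-141447680, plus strand) and the copy Rpl22l1 (chr3:28805488-28805537, plus strand) held one, as did Rpl27a (chr7:109519175-109519224, plus strand) with a run of 20 bases. Rps27rt (chr9:114982710-114982759, minus strand) and Rpl13 (chr8:123102330-123102379, plus strand) held none that met the rule.
Rps27: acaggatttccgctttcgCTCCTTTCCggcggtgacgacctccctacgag
Rps27rt: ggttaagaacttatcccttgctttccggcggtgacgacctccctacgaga
Rplp2: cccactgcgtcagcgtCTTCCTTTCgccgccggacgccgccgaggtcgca
Rpl27a: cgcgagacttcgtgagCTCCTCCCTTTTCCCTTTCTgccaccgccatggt
Rpl22l1: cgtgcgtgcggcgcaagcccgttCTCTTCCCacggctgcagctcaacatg
Rpl13: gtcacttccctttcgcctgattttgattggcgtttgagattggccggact

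Such a run was found in 23 of the 57 canonical members with a RefSeq window (40.35%), 14 of 34 for the large and 9 of 23 for the small subunit. It was found in 1 of 9 copies, in 5 of 69 mitochondrial ribosomal protein genes (7.246%), and in 2549 of 27025 genes overall (9.432%). With each base replaced by its complement at the same position, 2 of 67 canonical windows (2.985%) held a run, against 23 (34.33%) as given. The match is a description of the letters near an annotated start, which can lie some bases from the start used in these cells.

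Members took up a small part of the reads. Their share of counted reads was 0.607% to 0.637% in saline hippocampi (0.621% ± 0.012, SD, n = 5), 0.603% to 0.711% after young plasma (0.649% ± 0.039, n = 6) and 0.595% to 0.819% after the young platelet fraction (0.666% ± 0.079, n = 6). In microglia the share was 2.03%, 1.83% and 1.51% in saline 2, 3 and 4, and 1.57%, 1.66%, 1.44% and 1.50% in PF4 1 to 4. The share was thus higher in every microglial library than in any whole hippocampus. Non-members with transcripts under 1 kb also took a larger share in microglia, at 11.0% to 12.9% against 6.25% to 7.97% in hippocampus. Cell source and preparation differ together between these sets, so their parts cannot be told apart. Among hippocampi, 1 platelet fraction library (7595) stood above the others, and the treatment groups overlapped in both tissues. Reads on the large subunit exceeded those on the small subunit in all 24 libraries, by a ratio of 1.80 to 2.03 in hippocampus and 1.82 to 2.01 in microglia.

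**Figure D1:**
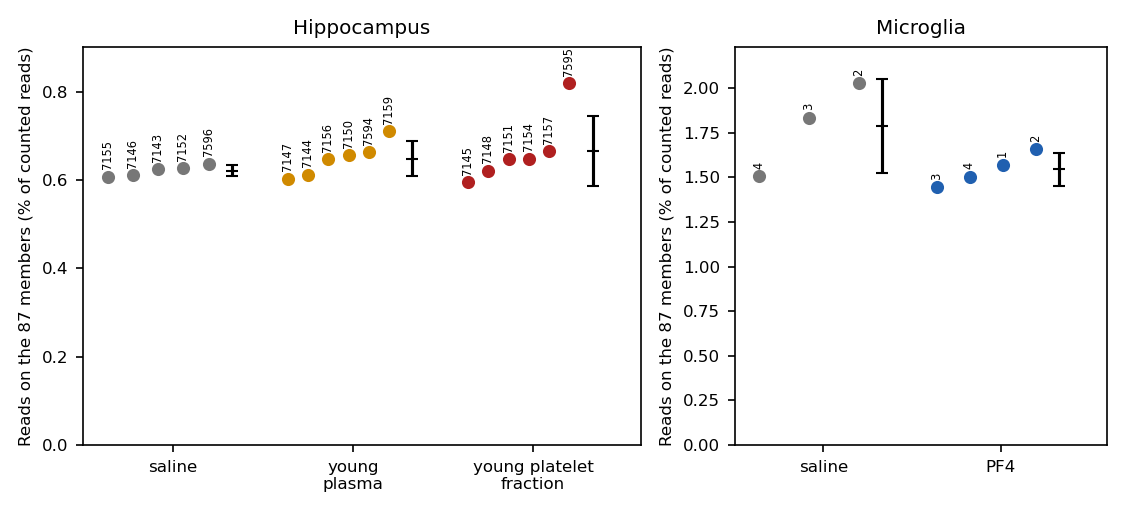
Share of counted reads on the 87 members (y axis, % of counted reads, from 0) in each hippocampal (left) and microglial (right) library by treatment, with the group mean and SD. Platelet fraction library 7595 lies at 0.819% and the other 16 hippocampi between 0.595% and 0.711%, while saline and PF4 microglia overlap.

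Levels differed widely between members. Per kilobase of transcript, the mean normalized count of the 77 canonical members over the hippocampal libraries ran from 37.3 for Rps20 to 2096 for Rpl3, a 56.2-fold range, and over the microglial libraries from 446 for Rps20 to 26682 for Rpl13, a 59.8-fold range. The copies Rpl37rt, Rpl3l, Rpl39l and Rpl10l lay below Rps20 in hippocampus, at 0.061 to 3.94, and so did these and Rpl22l1 (293) in microglia, where Rpl3l and Rpl10l were at 0. Rps20 has a single annotated coding transcript of 3706 bases, which lowers its value per kilobase. After Rpl3, a protein near the catalytic centre of the large subunit, the highest levels per kilobase in hippocampus were those of Rpl13 (2093), Rpl4 (1942), Rpl19 (1840) and Rpl41 (1781). In microglia, Rpl13 was followed by Rplp0 (22468), the base of the ribosomal stalk, and among the next highest were Rps9 (17450) and Rps29 (16725). Large and small subunit genes spanned overlapping ranges, with a median per kilobase of 595 and 714 in hippocampus and of 4695 and 5219 in microglia. The order of the 77 canonical members was broadly shared between the tissues (Pearson's r = 0.83 and Spearman's rho = 0.80 across genes, which are not independent, on log2 levels that share transcript lengths and base composition).

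**Figure D2:**
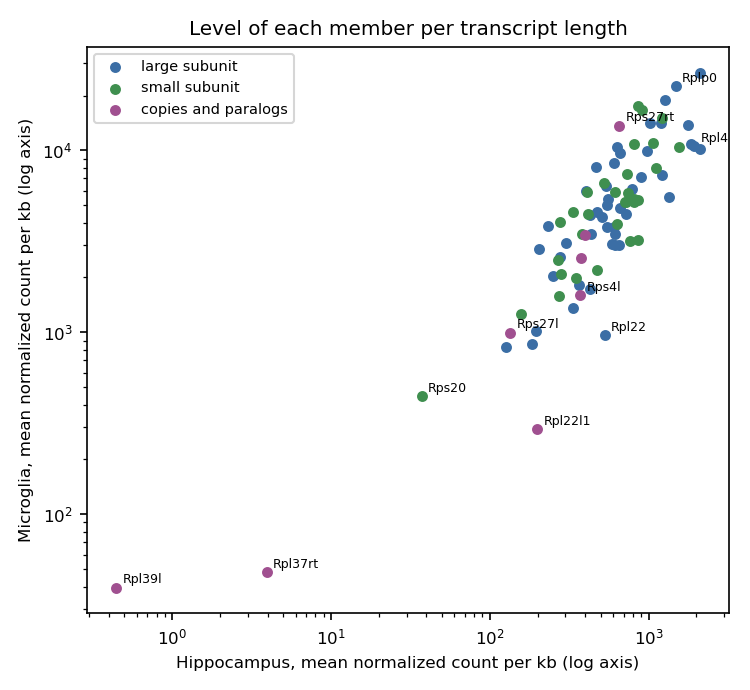
Mean normalized count per kilobase of transcript of each member in hippocampus (x axis, log scale) and microglia (y axis, log scale), coloured by class. Canonical genes rise along a common band, and the copies Rpl39l and Rpl37rt lie far below it. Rpl3l and Rpl10l, at 0 in microglia, are not drawn.

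The copies fell into those that carried much of the signal of their pair and those that were nearly silent. Rpl36al, a paralog of the X-linked Rpl36a, took 63.5% of the summed normalized counts of the pair in hippocampus and 64.4% in microglia. Rpl7l1, a relative of the yeast protein Rlp7, which acts in the making of the large subunit, took 38.9% and 37.3%, and Rpl22l1, a paralog that can stand in for Rpl22 in mice, took 30.3% (24.7% to 36.4% by library) and 26.2% (12.8% to 59.6%). Rps4l took 29.6% and 19.9%. These 4 copies were thus present in every library at levels within reach of the canonical gene.

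The nearly silent copies were Rpl3l, which is known from heart and skeletal muscle, the testis genes Rpl10l and Rpl39l, and, by the reads assigned to it, the retrocopy Rpl37rt. Rpl3l had 0 to 11 reads in each hippocampal library and 0 in all 7 microglial libraries, against a mean of 2832 and 13701 normalized counts for Rpl3. Rpl10l had 1 read in 1 plasma library and none elsewhere. Rpl37rt made up 0% to 1.9% of its pair in hippocampus, a split that is uncertain since 293 of 294 coding bases are shared. Rpl39l had at most 2 reads in any hippocampal library, but 28.6 normalized counts in microglial saline 4, 28.6 in PF4 3 and 94.7 in PF4 4 against 0 in the other 4, up to 24.0% of its pair. That pattern did not follow treatment. Rpl3l, Rpl10l, Rpl37rt and Rpl39l did not pass the filter on low values in hippocampus, nor Rpl3l and Rpl10l in microglia, so 83 and 85 members were tested.

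Rps27 and Rps27rt showed the widest swings of the members tested in hippocampus, in opposite directions. In saline hippocampi Rps27 was at 170, 17.3, 93.4, 107 and 343 normalized counts in libraries 7143, 7146, 7152, 7155 and 7596, and Rps27rt was at 138, 276, 234, 225 and 13.3 in the same libraries. Where one was high the other was low. After young plasma Rps27 was at 11.1 to 207 (median 114) and Rps27rt at 144 to 372 (median 219), and after the young platelet fraction, on that table's scale, at 14.2 to 199 (median 79.1) and 171 to 439 (median 323). Rps27rt thus ranged from 3.73% of the pair (7596, saline) to 96.7% (7147, plasma). Library 7596 stood alone at the low end, since the next lowest hippocampus was at 40.9% (7594, plasma). Every group held libraries with more of Rps27 and libraries with more of Rps27rt.

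Their sum was steady. The SD of log2 values within groups was 1.68 for Rps27 and 1.12 for Rps27rt but 0.194 for the sum, which lay between 293 and 418 normalized counts in 16 hippocampi and at 565 in 7595. In microglia Rps27rt took 58.8% to 85.4% of the pair, with SDs of 0.41 and 0.41 apart and 0.276 summed. Since the coding parts are identical, the split between both genes is uncertain and the sum is the better measure. Rps27l, which differs throughout, was at 44.9 to 82.2 in saline and plasma hippocampi and did not share these swings (SD 0.265).

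**Figure D3:**
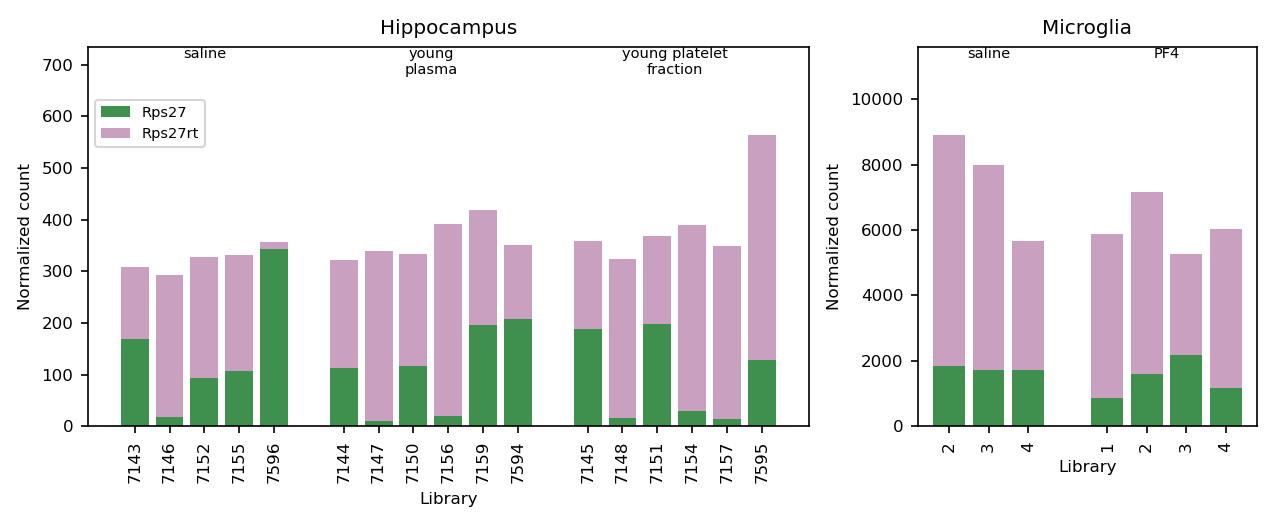
Normalized counts of Rps27 and Rps27rt (stacked bars, y axis from 0) in each hippocampal (left) and microglial (right) library by treatment. The split between both genes moves from 3.73% to 96.7% for Rps27rt in hippocampus, while the height of the stack stays between 293 and 418 in all but library 7595 (565).

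A related but weaker see-saw was seen for Rps4l and Rps4x in microglia, where the SD within groups was 0.362 and 0.189 apart and 0.0996 summed, although these sequences are only 80.0% identical. It was not seen in hippocampus (0.191, 0.155 and 0.128). Rps2, a small-subunit protein at the entry of the messenger RNA channel, was the other unsteady canonical gene in hippocampus (SD 0.80). It was at 339 and 563 normalized counts in saline libraries 7143 and 7596 against 1241 to 1645 in the other 3, and was as low as 460 after plasma (7144) and 538 after the platelet fraction (7151), so low libraries occurred in all groups. Rpl26 (0.68) followed. Among the steadiest were Rpsa (0.085) and Rpl9 (0.106) in hippocampus and Rpl4 (0.043), Rpl13 (0.113) and Rpl18 (0.115) in microglia.

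Most canonical members moved together from library to library. The deviation of a member from its group mean followed the mean deviation of the other canonical members with a median r of 0.80 over the 17 hippocampi, and 68 of 77 members were above 0.5. Over the 7 microglial libraries the median r was 0.66, with 55 of 77 above 0.5. Canonical members least tied to the rest in hippocampus were Rps2 (r = -0.03), Rpsa (0.02), Rpl22 (0.03), Rpl15 (0.13), Rplp0 (0.23) and Rpl4 (0.25). Rpsa, which also serves as the laminin receptor, was low in both tissues (-0.15 in microglia). The 17 hippocampi include library 7595, where 76 of 77 canonical members lay above the mean of the other 5 platelet fraction hippocampi. The correlations were not computed without it. These values are descriptions, and the points share libraries and their scaling.

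**Figure D4:**
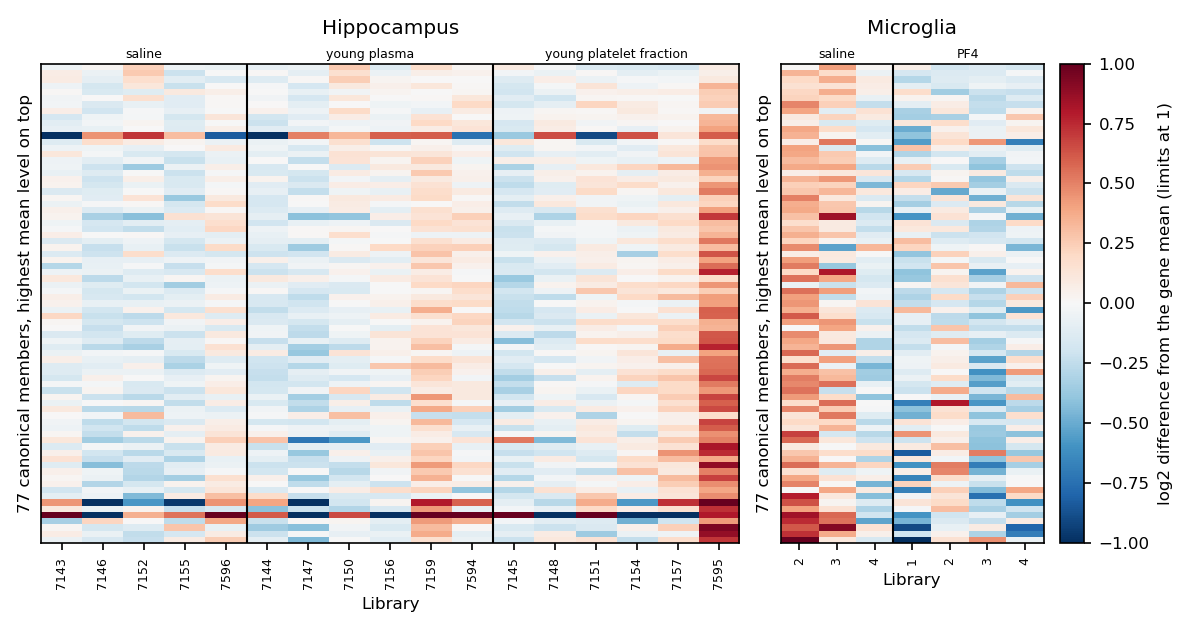
Deviation of the log2 normalized count of each of the 77 canonical members from its mean over the libraries (rows, highest mean level on top; colour scale in log2 units, limited at 1 in each direction) in each library (columns, grouped by treatment), for hippocampus and microglia. Column 7595 is shifted up over nearly all rows, and single rows such as those of Rps27 and Rps2 stand apart from most others.

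After young plasma no member was called. Of 83 members tested, 0 passed the unadjusted P of 0.05 that the study used for hippocampus (limma; edgeR and DESeq2 also called 0), where 456 of all 13594 genes did (3.35%), and with limma no member and no other gene reached an adjusted p of 0.05. No member had groups that did not overlap, against 0.191% of all genes. Of the 83, 66 were higher and 17 lower in mean, with a median log2 difference of 0.058 (0.056 for the large and 0.058 for the small subunit), beside a median of -0.010 over all genes and 47.3% of genes higher. Without plasma library 7159, the highest of its group, the median was 0.014 with 54 of 83 higher.

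The values of single members overlapped. Rps13, a small-subunit protein, was at 348 to 429 normalized counts in saline hippocampi (median 408) and 402 to 515 after plasma (median 435), a log2 difference of 0.17 ± 0.096 (SE, P = 0.104, limma; exact permutation test, two-sided, p = 0.104). Rplp2, the acidic stalk protein P2, was at 144 to 186 in saline (median 178) and 164 to 260 after plasma (median 188), a difference of 0.20 ± 0.14 (P = 0.168; exact permutation p = 0.169). The largest differences in either direction belonged to the ambiguous pair, at 0.94 ± 0.63 for Rps27rt (P = 0.162, limma; exact permutation p = 0.227) and -0.50 ± 0.85 for Rps27 (P = 0.564, limma; exact permutation p = 0.641). Without saline 7596 the difference of Rps27rt was 0.16, and without 7159 that of Rplp2 was 0.12.

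After the young platelet fraction more members lay above saline. Of 83 members tested 74 were higher and 9 lower in mean (Rpl3, Rpl4, Rpl22, Rpl30, Rps3, Rps27 and the copies Rpl7l1, Rpl22l1 and Rps4l), and the median log2 difference was 0.139 (0.126 for the large subunit, 0.144 for the small, 0.114 for the copies) beside 0.002 over all genes, of which 50.5% were higher. Of the single members, 1 passed the threshold, Rps13, where 3.87% of all 13603 genes passed in either direction and 2.41% passed upward. Thus the shift was small and broad, and the share of members called (1 of 83) was not above that of all genes. No member had groups that did not overlap, against 0.257% of all genes, and neither a member nor any other gene reached an adjusted p of 0.05.

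Rps13 (chr7:116331505-116334195, minus strand, GRCm38/mm10) was at 428, 410, 394, 350 and 431 normalized counts in saline libraries 7143, 7146, 7152, 7155 and 7596, and at 365 to 606 (median 487) after the platelet fraction. Of the 6 treated hippocampi 5 lay above every saline hippocampus, and 7145 (365) lay within their range. The log2 difference was 0.26 ± 0.12 (SE, P = 0.0459, adjusted p = 0.998, limma), and the exact permutation test gave p = 0.0606, where the smallest possible is 0.0022.

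Rpl10a, a large-subunit protein, was at 338 to 398 in saline hippocampi (median 382) and 378 to 502 after the platelet fraction (median 415), a difference of 0.19 ± 0.094 (P = 0.0593, limma; exact permutation p = 0.0411). Rplp2 was at 145 to 187 (median 179) and 166 to 360 (median 203), a difference of 0.34 ± 0.17 (P = 0.0649, limma; exact permutation p = 0.0498). For Rpl10a 4 of the 6 treated libraries lay above the highest saline library and for Rplp2 5 did. Among copies, Rpl36al was at 175 to 219 (median 185) and 161 to 341 (median 242), a difference of 0.29 ± 0.16 (P = 0.101, limma; exact permutation p = 0.123), and Rps27l at 54.8 to 75.3 (median 61.2) and 57.5 to 91.0 (median 72.3), a difference of 0.24 ± 0.15 (P = 0.138, limma; exact permutation p = 0.0996). Rps27rt differed by 1.18 ± 0.63 (P = 0.0848, limma; exact permutation p = 0.102) and Rps27 by -0.81 ± 0.83 (P = 0.350, limma; exact permutation p = 0.431), the opposite signs of a pair whose split is uncertain. Without saline 7596 these were 0.40 and -0.37, and without 7595 the differences of Rplp2 and Rpl36al were 0.20 and 0.17.

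The platelet fraction values rested on library 7595 more than on any other. There, 76 of 77 canonical members were above the mean of the other 5 platelet fraction hippocampi, by a median of 0.433 on the log2 scale (0.425 for the large and 0.447 for the small subunit). The largest differences were those of Rps27 (1.37), Rps21 (0.99), Rpl26 (0.98), Rpl39 (0.97) and Rplp2 (0.88), all short transcripts of low mean level, and the smallest were those of Rpl3 (0.11), Rplp0 (0.13) and Rpl4 (0.16), the abundant and long ones. Rpsa alone was below (-0.06). Across the 77 genes the difference followed transcript length with a rho of -0.46 and mean level with a rho of -0.65. Other short transcripts were also up in 7595, with a median of 0.225 for 973 genes under 1 kb that are not members, against 0.059 from 1 to 2 kb and -0.025 from 2 to 4 kb. The part of transcript length in the shift of the members was not tested.

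Without 7595 the median of the members against saline was 0.060, with 64 of 83 higher and 0 called. The call of Rps13 was also lost without saline 7152 or 7155, without 7157, or without the 3 libraries numbered from 7594, and leaving out 7145, the lowest platelet fraction library, raised the count to 8 and leaving out 7148 to 4. Without saline 7143 or 7596 the count was 2. Non-member transcripts under 1 kb had a median difference of 0.089 against saline, and of 0.040 after young plasma. Oligodendrocyte markers, whose summed level was 35071 to 69828 normalized counts in saline, 44835 to 103057 after plasma and 54762 to 90780 after the platelet fraction, passed the threshold upward for 5 of 5 genes in both comparisons. Ependymal markers were higher in mean for 5 of 5 after plasma (median log2 difference 0.54, 0 called) and after the platelet fraction (0.75, 1 called), and red cell markers for 2 of 2 tested after the platelet fraction (2.05, 1 called). Lower in median were granule cell markers (-0.52 after plasma, with 2 of 4 called, and -0.36 after the platelet fraction, with 1 of 4 called) and neuron markers, of which 0 and 1 of 6 were higher and 0 were called (medians -0.10 and -0.18). Microglial markers were higher in mean for 1 of 8 after plasma, with a median of -0.067 and 0 called. After the platelet fraction they were higher for 2 of 8, with a median of -0.176 and 1 called downward. Choroid plexus markers were higher for 5 of 6 (median 0.246) and 6 of 6 (0.342), with 0 called. Astrocyte markers had medians of -0.006 after plasma and -0.033 after the platelet fraction, where 1 of 4 was called downward. The part of these cells in the members' values was not tested.

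The platelet fraction and plasma hippocampi were then compared with each other on a common scale. Of 83 members 0 were called (limma; edgeR and DESeq2 also gave 0; no member was under an unadjusted P of 0.05), where 1.9% of 13693 genes were, and none had groups that did not overlap, against 0.0876% of all genes. Members were higher after the platelet fraction for 68 and lower for 15, with a median of 0.086 beside 0.013 over all genes. Without 7595 the median was -0.0009 and 39 of 83 were higher, so the difference between the treatments rested on that library.

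**Figure D5:**
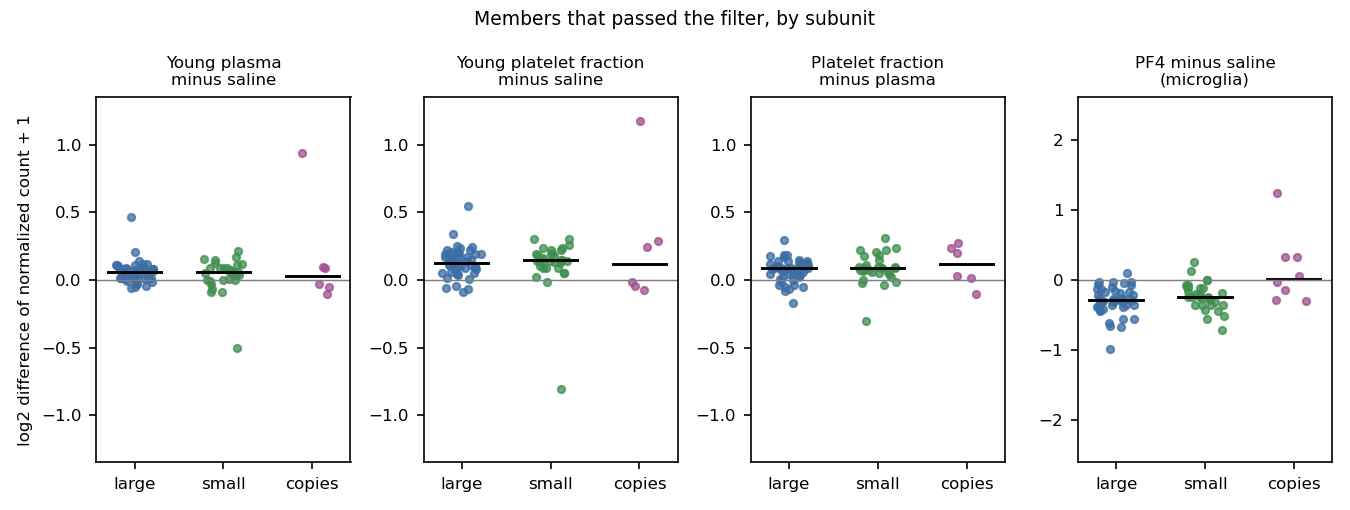
Log2 difference of normalized count + 1 (y axis) for each member that passed the filter, by class (x axis: large subunit, small subunit, copies), in the 4 comparisons, with the median of each class as a black line. Most hippocampal points lie between 0 and 0.2, with Rps27rt highest and Rps27 lowest, and most PF4 points lie below 0 with a median of -0.257; the y axis of the PF4 panel covers a wider range.

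In microglia the direction was the opposite. After PF4, 77 of 85 members tested were lower and 8 higher in mean (among them Rpl5, Rps6, Rps15a and the copies Rpl7l1, Rpl22l1, Rpl39l and Rps27l). The median log2 difference was -0.257, at -0.284 for the large and -0.237 for the small subunit and 0.014 for the copies, beside 0.026 over all genes, of which 48.3% were lower. No member passed the threshold of the study for microglia, an unadjusted P of 0.01, with limma or edgeR, and DESeq2 called 1 (Rpl13), where limma called 44 of 11320 genes (0.389%). At an unadjusted P of 0.05 limma gave 2 members, Rpl13 and Rps16, and no gene reached an adjusted p of 0.05.

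In 9 members every PF4 library lay below every saline library (Rpl4, Rpl8, Rpl13, Rpl27, Rpl30, Rpl36, Rpl39, Rplp1 and Rps16), where 2.23% of all genes did so. With 3 against 4 libraries the smallest exact permutation p is 0.0286. Groups that do not overlap give a value at or near it by construction. For members described because they separated, that p is no further test.

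Rpl13 was at 23646, 26453 and 21948 normalized counts in saline 2, 3 and 4, and at 16869, 18784, 19294 and 18692 in PF4 1 to 4. All PF4 libraries lay below the lowest saline library. The log2 difference was -0.38 ± 0.15 (SE, P = 0.0282, adjusted p = 0.982, limma; exact permutation p = 0.0286). Rps16, a small-subunit protein that contacts the peptidyl tRNA, was at 5452, 4985 and 3661 in saline and 3101, 3319, 3011 and 3223 in PF4, a difference of -0.55 ± 0.22 (P = 0.0319, adjusted p = 0.982, limma; exact permutation p = 0.0286). Its PF4 libraries were close together, and saline 4 was the nearest to them.

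The other separated members did not reach an unadjusted P of 0.05 (limma). Rpl27 was at 3152, 3315 and 2150 in saline and 2009, 2083, 1542 and 2108 in PF4 (-0.55 ± 0.27, P = 0.0707, limma; exact permutation p = 0.0286), and Rplp1, the stalk protein P1, at 9087, 8341 and 6842 against 5669, 6151, 6493 and 6798 (-0.36 ± 0.18, P = 0.0803, limma; exact permutation p = 0.0286). Rpl8 was at 7189, 7484 and 6417 against 6253, 4176, 5728 and 5128 (-0.41 ± 0.20, P = 0.0694, limma; exact permutation p = 0.0571). In each of these 3, saline 4 was the saline library nearest to the PF4 libraries. Rpl30, at 818, 1005 and 589 against 285, 504, 563 and 307, had the lowest log2 difference of any member (-0.98 ± 0.54, P = 0.101, limma; exact permutation p = 0.0571), while Rpl4 was tight but close, at 18006, 17883 and 17094 against 14585 to 15728 (-0.22 ± 0.14, P = 0.158, limma; exact permutation p = 0.0286). Rplp0, the member with the highest mean normalized count in microglia, overlapped between groups, at 30463, 40214 and 30669 against 31400, 26553, 27501 and 26784 (-0.26 ± 0.16, P = 0.139, limma; exact permutation p = 0.114), and its difference was -0.13 without saline 3.

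Among the 8 copies tested 4 were higher and 4 lower in mean, whereas 73 of 77 canonical members were lower. Rps27rt was at 7084, 6259 and 3920 in saline and 5018, 5565, 3096 and 4841 in PF4 (-0.30 ± 0.28, P = 0.312, limma; exact permutation p = 0.371). Rps27l, a paralog induced by p53 in human cells, was at 461, 469 and 316 against 304, 916, 413 and 597 (0.33 ± 0.61, P = 0.606, limma; exact permutation p = 0.514), and was lower in mean (-0.12) once saline 2, PF4 2 and PF4 4, high in choroid plexus transcripts, were left out. Over single left-out libraries the difference of Rps27rt ran from -0.56 (without saline 4) to -0.12 (without PF4 3), and that of Rps27l from 0.046 (without PF4 2) to 0.57 (without PF4 1). None of the copies separated the groups.

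The size of the PF4 difference depended on the saline libraries. The mean deviation of the members from their level over all microglia was 0.329, 0.151 and -0.089 on the log2 scale in saline 2, 3 and 4, against -0.193, 0.014, -0.192 and -0.020 in PF4 1 to 4. Saline 4 thus lay among the PF4 libraries. Without saline 2 the median was -0.131, with 61 of 85 lower, and without saline 4 it was -0.373. Saline 2 was also high in choroid plexus markers (205316, against 828 and 693 in saline 3 and 4), as were PF4 2 and PF4 4, and the 6 markers were all higher in mean in PF4, with a median log2 difference of 1.92. Without these 3 libraries the median of the members was -0.231, with 68 of 83 lower. Scaled to library totals, 72 of 85 were lower. The 946 non-members with transcripts under 1 kb had a median difference of 0.0009. Early response genes, which are induced when tissue is dissociated, were higher in mean for 1 of 8, with a median of -0.237, and their summed level was 519734 to 711676 normalized counts in saline and 500810 to 570905 in PF4. Neutrophil markers were higher in mean for 0 of 3 (median -0.70), at 2239 to 4497 summed in saline and 593 to 11278 in PF4. None of these genes was called, and their part in the members' values was not tested.

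Members with and without a pyrimidine run at the annotated start had similar medians. After PF4 the median log2 difference was -0.282 for the 23 canonical members with a run and -0.247 for the 34 with a window and no run, and after the platelet fraction it was 0.133 and 0.143. The 18 other genes listed for a known TOP sequence, most of them of the translation machinery and among them the elongation factors Eef1a1 and Eef2, had a median of -0.019 after PF4, with 9 of 18 higher, and of -0.016 after the platelet fraction, where 1 was called, the poly(A)-binding protein gene Pabpc1 (-0.41 ± 0.16, adjusted p = 0.998, limma).

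Ribosomal proteins can carry other names. Fau, which encodes the small-subunit protein eS30, had a log2 difference of 0.18 ± 0.10 after the platelet fraction (adjusted p = 0.998, limma) and of -0.33 ± 0.16 after PF4 (adjusted p = 0.982, limma). Gnb2l1 (Rack1), a scaffold on the small subunit, had differences of 0.03 ± 0.08 (adjusted p = 0.998, limma) and -0.18 ± 0.18 (adjusted p = 0.982, limma). Neither passed the threshold in either comparison.

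Of the 77 mitochondrial ribosomal protein genes, 60 were higher in mean after the platelet fraction (median 0.073), and 2 were called, Mrpl54 (0.30 ± 0.13, adjusted p = 0.998, limma) and Mrpl42 (0.23 ± 0.11, adjusted p = 0.998, limma). After young plasma 1 was called, Mrpl14 (0.25 ± 0.11, adjusted p = 0.9997, limma). After PF4 the median was -0.019 and 1 was called, Mrpl10 (-1.55 ± 0.45, adjusted p = 0.982, limma), so that in microglia these genes did not share the median of the cytosolic members. Nuclear genes of the respiratory chain, a list added with the values known, were higher for 65 of 72 after the platelet fraction (median 0.156, 5 called, among them Ndufa12 at 0.27 ± 0.10, adjusted p = 0.998, limma), for 58 of 72 after plasma (median 0.052, 0 called) and for 54 of 72 after PF4 (median 0.159, 0 called).

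Genes that make ribosomes or start translation were also examined. Of all genes, 3.35% were called after plasma, 3.87% after the platelet fraction and 0.389% after PF4. Of 33 ribosome biogenesis genes tested in hippocampus, 6 were higher in mean after plasma (median -0.073) and 13 after the platelet fraction (median -0.038). Plasma had 1 called in each direction, Noc2l (0.34 ± 0.14, adjusted p = 0.9997, limma), which acts in the maturation of the large subunit in yeast, and Rrn3 (-0.16 ± 0.07, adjusted p = 0.9997, limma), an initiation factor of RNA polymerase I, and the platelet fraction had 0. After PF4 0 of 34 were called, with a median of -0.194 and 12 higher. Of 27 initiation factors, 1 was called after plasma, Eif6 (0.17 ± 0.08, adjusted p = 0.9997, limma), which keeps free 60S subunits from joining, 0 after the platelet fraction and 0 after PF4 (median -0.133, 11 higher). The 13 genes of the mTORC1 and S6 kinase pathway had 0 called in all of these, with medians of -0.035 after plasma, -0.048 after the platelet fraction and 0.270 after PF4.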

How the data were processed

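RNA was sequenced from 17 hippocampi and 7 microglial preparations of aged mice. Per the labels, reads were aligned to mm10 with STAR, counted with RSEM and normalized with DESeq2. The labels name a strand-specific poly(A) kit, whereas the methods describe a modified Smart-Seq2 preparation. The authors deposited 3 tables of 24411 genes, in which the signal of a library is a normalized count, a gene's count over the library's size factor. Values were whole multiples of 1 read (tolerance 0.01 of a read) for 100% of values, so read counts were recovered. Columns of the authors' own fold changes and P values were not used. Reads shared by near-identical genes were assigned by RSEM's model.

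The log2 of the normalized count plus 1 entered limma 3.58.1 (R 4.3.3), with a trend, for the 2 groups of each comparison, over genes at 10 or more in at least 5 hippocampal or 3 microglial libraries. Differences are treated minus saline. Thresholds were those of the study, an unadjusted P of 0.05 in hippocampus and 0.01 in microglia, and Benjamini-Hochberg adjusted p covered all genes tested. Both hippocampal comparisons share the saline libraries, and plasma and platelet fraction libraries were put on one scale through them. Single members were also compared by two-sided exact permutation tests. Lengths and coding sequences are those of the APPRIS principal transcript in GENCODE vM21, and start windows are from RefSeq (GRCm38.p6). The tests were checked on simulated counts.

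The members, lists and tests were chosen with earlier results of these data known. The text names members past a threshold, all copies with their partners, canonical members of highest and lowest level and spread, and up to 3 genes of each other list by P. Members whose groups did not overlap, those least tied to the rest, and those highest per kilobase were added with their values known. Results of a few genes are not reported here. Other settings tried were edgeR 4.0.16 and DESeq2 1.42.0 on recovered reads, TMM or library totals (with and without the members) as the scale, a pseudocount of 0.5 or 5, filtering at 50 or not at all, 1 fit for all hippocampal groups, the replicate number as a block for PF4, and leaving out each library. Further settings, chosen once the data had been seen, left out 5 hippocampal libraries apart on the first principal component (saline 7146 and 7152, plasma 7147 and 7150, platelet fraction 7148), 3 hippocampal libraries numbered from 7594, and 3 microglial libraries high in choroid plexus transcripts. Reads carry no molecular identifiers and are not independent molecules.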

Additional observations from a re-analysis of the deposited data

Results flagged for a closer look

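Among 88 groups of 4 to 10 libraries examined for a library far from the rest, 6 held one, where chance gives about 1 in 20. Of these, 4 were platelet fraction library 7595. Its share of reads on the members was 0.819%, against 0.665% in the next library of the group. The mean deviation of its members from their level over all hippocampi was 0.474 on the log2 scale, against 0.097 in the next. Rplp2 was at 360 normalized counts there, against 216 in the next library, and Rps27 and Rps27rt summed to 565, against 390. The other 2 were in saline library 7152, where Rpl22 was at 313 normalized counts against 250 in the next saline hippocampus, and Rpl4 at 3496 against 3011.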

How the results depend on the processing

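Young plasma against saline kept 0 members called and a median above 0 under each setting, apart from leaving out single libraries, where the count ran from 0 to 1 and the median log2 difference from 0.014 to 0.085. For the young platelet fraction against saline the count of 1 became 2 with edgeR, 2 with DESeq2, 2 with all hippocampal groups in 1 fit, and 0 without the 3 libraries numbered from 7594. Leaving out single libraries gave 0 to 8 members and medians from 0.060 to 0.187. For the platelet fraction against plasma, leaving out single libraries gave 0 to 2 members and medians from -0.000942 to 0.126, with the reversed sign only without library 7595. For PF4 against saline DESeq2 called 1 member where limma called 0. Leaving out single libraries kept 0 called and gave medians from -0.373 to -0.131. For single members, the difference of Rps27 after young plasma ran from -1.12 to 0.012 over left-out libraries, with the sign turned without 7147, and that of Rps27l after PF4 was -0.12 without the 3 microglial libraries high in choroid plexus transcripts. The cause was not tested. The replicate block in microglia gave 0 members called and a median of -0.228. Libraries of the same number correlated at 0.136, 0.059 and 0.032 in their deviations from the group means, so the numbers were not taken to pair the libraries.

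With 3 against 4 microglial libraries, differences of the size seen for the members are near the spread between libraries. Depth limits Rpl3l, Rpl10l, Rpl37rt and Rpl39l, which had 0 to 11 reads in each hippocampal library. Reads of Rps27 and Rps27rt cannot be told apart over the coding sequence, and those of Rpl37 and Rpl37rt differ there at 1 base only. Lengths come from 1 transcript per gene, so levels per kilobase are approximate. Start sites are annotated, not measured.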
